A study of Mus musculus with 21 samples.

Results

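Primary granule genes encode the proteins that neutrophil precursors pack into their first granules. The list used here is wider. It also holds genes of a cytosolic inhibitor (*Serpinb1a*), a secreted inhibitor (*Slpi*) and a membrane-spanning protein that marks GMPs (*Ms4a3*). The 10 genes described here are *Mpo*, *Elane*, *Prtn3*, *Ctsg*, *Lyz2*, *Srgn*, *Ms4a3*, *Nkg7*, *Serpinb1a* and *Slpi*, listed by name among the 47643 gene identifiers of the count table. The list was made with earlier results of these data known. All 10 were found once in the table, and all 10 passed the filter on low counts that left 14801 genes for testing. RNA was measured in 21 libraries of bone marrow progenitors from C57/B6 mice, 3 for each of 7 populations sorted by flow cytometry. All were lineage-negative, SCA-1-negative, C-KIT-positive cells, and the labels name no treatment and no engineered allele. Common myeloid progenitors (CMPs) were CD16/32-negative and CD34-positive, and granulocyte-macrophage progenitors (GMPs) were CD16/32-positive and CD34-positive. The CMP populations were bulk CMPs, CD62L-neg CMPs and CD62L-high CMPs, where CD62L is a surface adhesion molecule. The GMP populations were bulk GMPs and the CD62L-neg, CD62L-int and CD62L-high fractions of GMPs. The labels write CD62L-low for the populations called CD62L-neg CMP and CD62L-int GMP here, which are the names used in the study. The labels give neither the age nor the sex of the mice, while the study states an age range in weeks for all its mice. The labels do not say that libraries of a population came from separate mice. P-values therefore measure the spread between these libraries, which may be technical.

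Primary, or azurophil, granules form at the promyelocyte stage, earlier than the specific and gelatinase granules. Myeloperoxidase and the neutrophil serine proteases are stored in them, and their transcripts were already present in the CMPs and GMPs measured here. The proteases are bound to the proteoglycan serglycin inside the granule, are activated by the dipeptidyl peptidase cathepsin C, and are held in check in the cytosol and outside the cell by inhibitors.

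*Fcgr3*, which encodes CD16, had means of 7.88 to 15 CPM in the CMP populations and 139 to 169 CPM in the GMP populations. *Cd34* had means of 364 CPM in bulk CMPs, 392 CPM in CD62L-high CMPs and 149 to 186 CPM in the GMP populations. In CD62L-neg CMPs, though sorted as CD34-positive, its mean was only 83.2 CPM, with libraries from 46.8 to 138 CPM. Libraries held 6145834 to 15263573 counts, and values are given as CPM (counts scaled to the same total in every library), scaled between libraries by the trimmed mean of M values (TMM). Together the gene models *Gm42418*, *Gm26917* and *Gm23935* held 61.0% of the counts of bulk CMP replicate 2 and 41.1% of those of CD62L-high GMP replicate 1, against 22.4% to 31.7% in the other libraries. Several results are therefore also given without one of these libraries. The study left out a bulk CMP sample for a low mapping rate without naming it, and all 3 were used here.

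Together the 10 genes made up a mean of 0.293 ± 0.0964% (SD, n = 3) of the protein-coding counts in the CD62L-neg fraction of CMPs, 0.938 ± 0.0990% in bulk CMPs and 1.32 ± 0.104% in the CD62L-high fraction. In GMPs the share was 3.43 ± 0.0687% in the bulk population, 4.18 ± 0.165% in the CD62L-neg, 3.904 ± 0.249% in the CD62L-int and 3.46 ± 0.572% in the CD62L-high fraction, where replicate 1 had 4.12% and the other libraries 3.12% and 3.13%. *Mpo* alone held 60.3% to 68.7% of those counts in the CD62L-neg CMPs and 76.8% to 85.4% in the other 6 populations. Per kilobase of exon, *Mpo* was the most abundant of 21620 protein-coding genes in all 4 GMP populations, ranked 2 in CD62L-high CMPs and 57 in CD62L-neg CMPs. *Elane* ranked 2 in CD62L-neg GMPs and 296 in CD62L-neg CMPs. *Slpi* ranked lowest of the 10 in CD62L-neg CMPs, at 10076. All 10 genes differed among the 7 populations at an adjusted p under 0.05 (edgeR quasi-likelihood F test, Benjamini-Hochberg adjustment over all 14801 genes), where 39% of all tested genes did. Because these are bulk libraries, fewer cells that express a gene and less of its RNA per cell cannot be told apart.

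**Figure D1:**
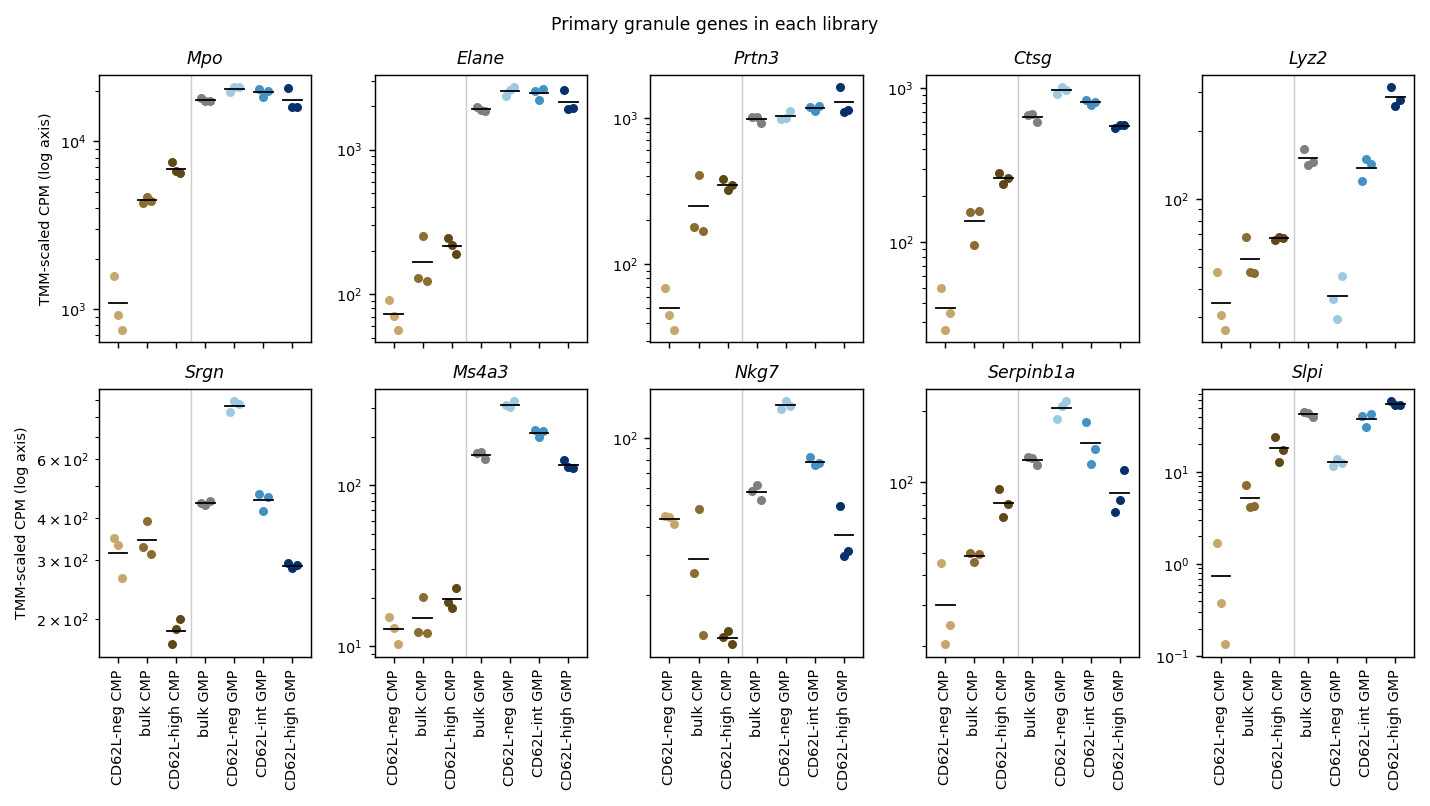
TMM-scaled CPM of the 10 genes on a log axis, with 1 point per library (replicates 1 to 3 from left to right in each population), a black bar at the population mean and a grey line between CMP and GMP populations. Mpo, Elane, Prtn3 and Ctsg stepped up from CD62L-neg to CD62L-high CMPs and again to GMPs, while Lyz2 and Slpi were lowest among GMPs in the CD62L-neg fraction, and Srgn, Ms4a3, Nkg7 and Serpinb1a were highest there.

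The enzymes of the granule core come first. *Mpo* encodes myeloperoxidase, the heme enzyme that makes hypochlorous acid, and lies at chr11:87793581-87804413 on the plus strand (mm10). *Mpo* had 1569, 924 and 751 CPM in replicates 1, 2 and 3 of the CD62L-neg CMPs, 4265, 4631 and 4439 CPM in the bulk CMPs and 7544, 6656 and 6458 CPM in the CD62L-high CMPs. In the GMPs, *Mpo* had 18084, 17308 and 17378 CPM in the bulk libraries, 19804, 21012 and 21211 CPM in the CD62L-neg, 20677, 18310.5 and 20108 CPM in the CD62L-int and 20827, 15975 and 15973 CPM in the CD62L-high libraries. No CMP library reached any GMP library, and the 3 CMP populations did not overlap one another. Ordered by mean, bulk GMPs exceeded CD62L-high CMPs by a log2 difference of 1.35 (SE 0.19, adjusted p = 3.45e-05), CD62L-high CMPs exceeded bulk CMPs by 0.63 (SE 0.19, adjusted p = 0.0372) and bulk CMPs exceeded CD62L-neg CMPs by 2.04 (SE 0.19, adjusted p = 1.01e-07), all with edgeR's quasi-likelihood test. The 4 GMP populations lay between 17589.9 and 20676 CPM in the mean, and no neighbours among them differed beyond the spread. In CD62L-high GMPs the mean was 17592 CPM with replicate 1 and 15974 CPM without it.

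*Elane* encodes neutrophil elastase, a serine protease that degrades bacterial and matrix proteins (chr10:79886247-79888215, plus strand). *Elane* had 91.1, 70.5 and 56.6 CPM in replicates 1, 2 and 3 of the CD62L-neg CMPs, 129, 251 and 123 CPM in the bulk CMPs and 243, 217 and 189 CPM in the CD62L-high CMPs. In the GMPs, *Elane* had 1958, 1888 and 1841 CPM in the bulk libraries, 2355, 2577 and 2719.7 CPM in the CD62L-neg, 2523, 2206 and 2626 CPM in the CD62L-int and 2569.6, 1906 and 1931 CPM in the CD62L-high libraries. The GMP libraries stood far above all CMP libraries, whereas bulk CMP replicate 2 lay above every CD62L-high CMP library and the other bulk CMP libraries below. Without that replicate the bulk CMP mean was 126 CPM in place of 168 CPM, and the log2 difference of bulk GMPs over bulk CMPs was 3.91 (adjusted p = 2.68e-14) in place of 3.51 (SE 0.23, adjusted p = 4.06e-10). *Elane* showed the largest difference of the 10 genes between bulk GMPs and bulk CMPs. Bulk CMPs and CD62L-high CMPs did not differ beyond the spread (log2 difference 0.37, SE 0.21, adjusted p = 0.307), nor did neighbours in level among the GMP populations.

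*Prtn3* encodes proteinase 3, an elastase-like protease (chr10:79874476-79883174, plus strand), and its gene ends 3073 bases before *Elane* begins. *Prtn3* had 68.9, 45.3 and 35.7 CPM in replicates 1, 2 and 3 of the CD62L-neg CMPs, 179.7, 406 and 168 CPM in the bulk CMPs and 383, 322 and 346 CPM in the CD62L-high CMPs. In the GMPs, *Prtn3* had 1014, 1007 and 916 CPM in the bulk libraries, 984, 990.4 and 1107 CPM in the CD62L-neg, 1193, 1121 and 1211 CPM in the CD62L-int and 1629.9, 1103 and 1139 CPM in the CD62L-high libraries. Bulk CMP replicate 2 was again above the other bulk CMP libraries, and CD62L-high GMP replicate 1 was the highest of all 21 libraries. Without bulk CMP replicate 2 the log2 difference of bulk GMPs over bulk CMPs was 2.49 (adjusted p = 5.8e-10) in place of 1.97 (SE 0.26, adjusted p = 7.08e-06). *Plppr3*, on the opposite strand, overlaps the annotated *Prtn3* gene and held 17.0% as many counts as *Prtn3* over the 21 libraries. The strand setting of the counting is not given in the sources used here, so reads in the shared stretch cannot be assigned, and the same holds for *Gm11505* opposite *Mpo*, with 0.599% as many counts as *Mpo*.

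*Ctsg* encodes cathepsin G, the chymotrypsin-like protease of the granule (chr14:56099881-56102574, minus strand). *Ctsg* had 50.4, 26.8 and 34.3 CPM in replicates 1, 2 and 3 of the CD62L-neg CMPs, 157, 94.8 and 159 CPM in the bulk CMPs and 279, 238 and 260.4 CPM in the CD62L-high CMPs. In the GMPs, *Ctsg* had 670.2, 674 and 605 CPM in the bulk libraries, 919, 1021 and 969 CPM in the CD62L-neg, 839, 776 and 811 CPM in the CD62L-int and 552, 579 and 578 CPM in the CD62L-high libraries. The order of the GMP fractions was CD62L-neg, then CD62L-int, then CD62L-high, with no overlap between fractions. CD62L-high GMPs were below CD62L-neg GMPs by a log2 difference of -0.77 (SE 0.18, adjusted p = 0.00423) in the quasi-likelihood test, a fold of 1.70 that is under the 2-fold required for a call. In bulk CMP replicate 2 *Ctsg* was lower than in the other bulk CMP libraries, the opposite of *Elane* and *Prtn3*, and the bulk CMP mean was 158 CPM without it and 137 CPM with it.

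The sequence before the start of these genes is shown because *Mpo*, *Elane*, *Prtn3* and *Ctsg* rose together from CMPs to GMPs, and those of *Lyz2*, *Slpi* and *Ms4a3* because these genes diverged among the GMP fractions. RefSeq promoters (GRCm38.p6) were matched by symbol for 9 of the 10 genes, with 2 starts for *Srgn*. The entry for *Serpinb1a* was not matched. In the 250 bases before each RefSeq start, 5 motifs of factors known at granule genes were searched on both strands: TTNNGNAA for C/EBP factors, GAGGAA for PU.1, TGNGGT for RUNX factors, AACGG for MYB and AAATCA for GFI1. Of 16387 promoters of protein-coding genes, 1 for each gene, 34.2% held the C/EBP motif, 22.3% the PU.1 motif, 38.3% the RUNX motif, 16.1% the MYB motif and 11.3% the GFI1 motif. Each sequence runs 5′ to 3′ on the strand of the gene, from 250 bases before the RefSeq start to the base before the most upstream GENCODE protein-coding start, and capitals mark motif matches that lie whole within it. The stretches are chr11:87793534-87793580 (plus strand) for *Mpo*, chr10:79886062-79886246 (plus strand) for *Elane*, chr10:79879417-79879613 (plus strand) for *Prtn3*, chr14:56102575-56102824 (minus strand) for *Ctsg*, chr10:117282322-117282522 (minus strand) for *Lyz2*, chr2:164356508-164356757 (minus strand) for *Slpi* and chr19:11640852-11641101 (minus strand) for *Ms4a3*.
Mpo: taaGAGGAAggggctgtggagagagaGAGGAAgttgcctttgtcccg
Elane: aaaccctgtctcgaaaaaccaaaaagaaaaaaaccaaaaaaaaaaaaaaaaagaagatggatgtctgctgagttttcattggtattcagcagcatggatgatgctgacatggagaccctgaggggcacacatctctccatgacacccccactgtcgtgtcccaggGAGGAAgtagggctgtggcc
Prtn3: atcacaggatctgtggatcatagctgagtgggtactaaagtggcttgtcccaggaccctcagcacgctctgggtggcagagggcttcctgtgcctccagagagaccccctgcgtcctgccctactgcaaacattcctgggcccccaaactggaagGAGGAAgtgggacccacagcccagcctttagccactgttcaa
Ctsg: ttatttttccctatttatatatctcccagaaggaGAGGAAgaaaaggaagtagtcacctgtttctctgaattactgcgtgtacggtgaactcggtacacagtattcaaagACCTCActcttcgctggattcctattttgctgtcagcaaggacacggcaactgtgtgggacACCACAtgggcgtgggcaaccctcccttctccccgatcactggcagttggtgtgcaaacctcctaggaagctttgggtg
Lyz2: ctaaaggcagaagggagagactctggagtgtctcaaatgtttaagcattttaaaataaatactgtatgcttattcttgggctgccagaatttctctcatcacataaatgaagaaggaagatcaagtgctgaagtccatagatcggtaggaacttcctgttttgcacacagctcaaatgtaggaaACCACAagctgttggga
Slpi: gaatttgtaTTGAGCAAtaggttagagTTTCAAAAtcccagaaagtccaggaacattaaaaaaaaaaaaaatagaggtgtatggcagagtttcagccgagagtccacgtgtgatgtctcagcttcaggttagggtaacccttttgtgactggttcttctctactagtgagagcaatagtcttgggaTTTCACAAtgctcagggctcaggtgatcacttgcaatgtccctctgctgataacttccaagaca
Ms4a3: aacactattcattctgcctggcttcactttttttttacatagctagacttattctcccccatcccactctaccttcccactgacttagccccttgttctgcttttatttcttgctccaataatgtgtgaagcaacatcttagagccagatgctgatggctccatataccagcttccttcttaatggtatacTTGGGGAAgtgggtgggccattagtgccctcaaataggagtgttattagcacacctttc

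The PU.1 motif was present before all 4 of *Mpo*, *Elane*, *Prtn3* and *Ctsg*, with 2 matches before *Mpo* and 1 before each protease gene, and before none of the other 5 genes with an entry. The C/EBP motif was absent from the windows of those 4 genes. It was found once before *Lyz2*, once before *Ms4a3*, 3 times before *Slpi* and 5 times before the downstream start of *Srgn*, where matches overlapped one another and a RUNX match. The MYB motif lay 50 bases before the RefSeq start of *Elane* and 55 bases before that of *Prtn3*, the former outside the printed stretch and the latter reaching past its end, as the C/EBP match of *Lyz2* does. The printed stretches of *Prtn3* and *Slpi* lie within the annotated span of the gene, which also covers transcripts that start farther upstream. The RUNX motif was found before *Ctsg*, *Nkg7*, *Lyz2* and the downstream *Srgn* start, and the GFI1 motif before none of the 9. These are matches of short letter strings and say nothing about binding.

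*Lyz2* encodes lysozyme M, which cleaves bacterial cell walls and is made by monocytes and macrophages as well as neutrophils (chr10:117277331-117282321, minus strand). *Lyz2* had 47.2, 30.4 and 26.2 CPM in replicates 1, 2 and 3 of the CD62L-neg CMPs, 67.7, 47.2 and 47 CPM in the bulk CMPs and 65.8, 68.1 and 67.3 CPM in the CD62L-high CMPs. In the GMPs, *Lyz2* had 166, 142 and 147 CPM in the bulk libraries, 36.1, 29.2 and 45.4 CPM in the CD62L-neg, 120.3, 151 and 144 CPM in the CD62L-int and 316, 259 and 275 CPM in the CD62L-high libraries. The CD62L-neg GMPs overlapped the CD62L-neg CMPs and were the lowest GMPs, while the CD62L-high GMPs were above every other library. The log2 difference between CD62L-neg GMPs and CD62L-neg CMPs was 0.09 (SE 0.20, adjusted p = 0.815) in the quasi-likelihood test. CD62L-high GMPs exceeded bulk GMPs by 0.90 (SE 0.19, adjusted p = 0.00788). Of the other lysozyme gene, *Lyz1*, no library held more than 0.919 CPM.

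*Slpi* encodes a secreted inhibitor of elastase and cathepsin G (chr2:164354070-164389095, minus strand). *Slpi* had 1.7, 0.383 and 0.135 CPM in replicates 1, 2 and 3 of the CD62L-neg CMPs, 7.24, 4.19 and 4.31 CPM in the bulk CMPs and 24, 12.9 and 17.3 CPM in the CD62L-high CMPs. In the GMPs, *Slpi* had 44.5, 43.2 and 39.2 CPM in the bulk libraries, 11.6, 14 and 12.7 CPM in the CD62L-neg, 40.5, 31 and 42.2 CPM in the CD62L-int and 58.6, 52.9 and 53.3 CPM in the CD62L-high libraries. The values of CD62L-neg CMPs rest on 14, 3 and 1 counts, and all other populations lay above them without overlap. CD62L-high CMPs exceeded CD62L-neg CMPs by a log2 difference of 4.55 (SE 0.40, adjusted p = 8.77e-09), and by 6.05 (adjusted p = 1.24e-09) without CD62L-neg CMP replicate 1 (quasi-likelihood test). CD62L-neg GMPs had the lowest *Slpi* among GMPs and overlapped the CD62L-high CMPs.

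*Serpinb1a* encodes a cytosolic serpin that inhibits the neutrophil serine proteases (chr13:32842092-32851185, minus strand). *Serpinb1a* had 45.2, 20.3 and 24.6 CPM in replicates 1, 2 and 3 of the CD62L-neg CMPs, 49.98, 45.7 and 49.2 CPM in the bulk CMPs and 93, 70.7 and 80.9 CPM in the CD62L-high CMPs. In the GMPs, *Serpinb1a* had 128, 127 and 118 CPM in the bulk libraries, 187, 212 and 221 CPM in the CD62L-neg, 179.9, 119.9 and 139 CPM in the CD62L-int and 74.2, 83.7 and 112 CPM in the CD62L-high libraries. Its highest values were in CD62L-neg GMPs, and CD62L-high GMPs overlapped CD62L-high CMPs, with a log2 difference of 0.14 (SE 0.21, adjusted p = 0.75) by the quasi-likelihood test. The neighbouring copies *Serpinb1b* and *Serpinb1c* had at most 0.134 CPM and no count, respectively, in any library.

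*Srgn* encodes serglycin, the proteoglycan core that retains proteases in granules of many blood cells (chr10:62493833-62527451, minus strand). *Srgn* had 349, 332 and 265 CPM in replicates 1, 2 and 3 of the CD62L-neg CMPs, 329, 393 and 313 CPM in the bulk CMPs and 168, 186 and 199.6 CPM in the CD62L-high CMPs. In the GMPs, *Srgn* had 442, 437 and 449 CPM in the bulk libraries, 828, 893 and 875 CPM in the CD62L-neg, 471, 421 and 462 CPM in the CD62L-int and 294, 283 and 289 CPM in the CD62L-high libraries. Of the 10 genes *Srgn* had the smallest ratio between its highest and lowest population mean. It was lowest in CD62L-high CMPs without overlap with any other population, and was highest in CD62L-neg GMPs. CD62L-neg GMPs exceeded CD62L-int GMPs by a log2 difference of 0.94 (SE 0.13, adjusted p = 2.41e-05, quasi-likelihood test). CD62L-neg CMPs, bulk CMPs and CD62L-high GMPs did not differ beyond their spread as neighbours in the order of levels.

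*Ms4a3* encodes a membrane-spanning protein of the CD20 family that marks GMPs and their progeny (chr19:11629496-11640851, minus strand). *Ms4a3* had 15.3, 13 and 10.3 CPM in replicates 1, 2 and 3 of the CD62L-neg CMPs, 12.3, 20.3 and 12 CPM in the bulk CMPs and 18.9, 17.4 and 22.9 CPM in the CD62L-high CMPs. In the GMPs, *Ms4a3* had 159.6, 159.8 and 146 CPM in the bulk libraries, 313, 305 and 332 CPM in the CD62L-neg, 219, 199.6 and 219 CPM in the CD62L-int and 144, 129 and 128 CPM in the CD62L-high libraries. Bulk CMPs overlapped both CD62L fractions of CMPs, and every GMP library was far above every CMP library. Within the GMPs the order was CD62L-neg, CD62L-int, bulk and CD62L-high, without overlap. CD62L-neg GMPs exceeded CD62L-int GMPs by a log2 difference of 0.58 (SE 0.16, adjusted p = 0.0280, quasi-likelihood test).

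*Nkg7* encodes a membrane protein of cytotoxic granules that is also expressed in early granulocytes (chr7:43437073-43438249, plus strand). *Nkg7* had 45, 44.4 and 41.5 CPM in replicates 1, 2 and 3 of the CD62L-neg CMPs, 25.1, 48.1 and 13.2 CPM in the bulk CMPs and 12.9, 13.7 and 12 CPM in the CD62L-high CMPs. In the GMPs, *Nkg7* had 58, 61.9 and 53 CPM in the bulk libraries, 135, 146 and 138 CPM in the CD62L-neg, 81.8, 75.9 and 77.3 CPM in the CD62L-int and 49.7, 29.7 and 31.4 CPM in the CD62L-high libraries. *Nkg7* was lowest in CD62L-high CMPs, whose range held bulk CMP replicate 3, and highest in CD62L-neg GMPs. The bulk CMP libraries were spread over 13.2 to 48.1 CPM, and the mean was 28.8 CPM with replicate 2 and 19.1 CPM without it. Of 13 NK and T cell markers, 11 did not pass the filter on low counts, and the summed level of the list was 13.4 to 26.9 CPM in CD62L-neg CMPs, 2.21 to 3.30 CPM in CD62L-high CMPs, 5.66 to 13.2 CPM in CD62L-neg GMPs and at most 0.737 CPM in CD62L-high GMPs. In bulk CMPs the sum was 9.27 to 30.0 CPM. Most of the sum in CD62L-neg CMPs was *Gzmb*, a granzyme also made by mast cells, at 17 ± 4.82 CPM. *Klrb1c*, *Prf1* and *Ccl5* were also detected in CD62L-neg CMPs and CD62L-neg GMPs, and *Klrd1* in CD62L-neg CMPs. *Cd3e*, *Cd3g*, *Gzma*, *Trbc2*, *Ncr1*, *Eomes*, *Tbx21* and *Il2rb* were at 0 in both. The part of NK or T cells in the levels of *Nkg7* was not tested.

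The first comparison asks how the CD62L sort divides CMPs. A call needed an adjusted p below 0.05 together with a change of more than 2-fold (edgeR, quasi-likelihood test over all 21 libraries). In CD62L-high against CD62L-neg CMPs, 6 of the 10 genes were higher, where 5.62% of all tested genes were, and 1 was lower, where 4.84% were. *Mpo*, *Elane*, *Ctsg* and *Slpi* are among the granulocyte and monocyte genes that the study itself picked out for this contrast in these libraries, so their direction is not independent evidence. *Slpi* rose most, followed by *Prtn3* with 2.81 (SE 0.27, adjusted p = 3.7e-08), *Ctsg* with 2.80 (SE 0.20, adjusted p = 2.51e-10) and *Mpo* with 2.67 (SE 0.20, adjusted p = 4.81e-10). *Elane* had a log2 fold change of 1.57 (SE 0.22, adjusted p = 8.9e-06) and *Serpinb1a* of 1.44 (SE 0.22, adjusted p = 3.66e-05). *Nkg7* fell, at -1.76 (SE 0.27, adjusted p = 3.49e-05). *Lyz2* at 0.95, *Ms4a3* at 0.62 and *Srgn* at -0.77 were past the adjusted p but under the 2-fold limit, and *Lyz2* passed it, at 1.24, without CD62L-neg CMP replicate 1. The median log2 fold change of the 10 was 1.505 against 0.00881 over all tested genes, and all 10 had no overlap between the 2 groups, where 39.0% of all genes had none.

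Bulk GMPs against bulk CMPs cover the step between the classical populations. Of the 10 genes, 9 were higher, where 4.19% of all tested genes were, and 0 were lower, where 7.3% were. *Elane* and *Ms4a3* rose most, the latter by 3.42 (SE 0.19, adjusted p = 1.33e-11) on the log2 scale. *Slpi* followed at 2.98, *Ctsg* at 2.24, *Mpo* at 1.98, *Prtn3* at 1.97, *Lyz2* at 1.48, *Serpinb1a* at 1.36 and *Nkg7* at 1.05. *Srgn* had a fold of 1.29, under the limit. The groups did not overlap for any of the 10, where 35.5% of all genes did not. The call of *Nkg7* lies at the 2-fold limit and was lost in 6 of the alternative settings, with log2 fold changes of 0.69 to 0.9975 there. It was 1.59 without bulk CMP replicate 2 (adjusted p = 4.26e-06), and 0.69 without bulk CMP replicate 3 (adjusted p = 0.0289).

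Bulk populations were also set beside the fractions. CD62L-int CMPs were not measured, and the GMP fractions held only parts of the GMPs. The fractions therefore do not add up to the bulk, and the position of the bulk mean does not test them. For 9 of the 10 genes the bulk CMP mean lay between those of CD62L-neg and CD62L-high CMPs, and the bulk mean of *Srgn* lay above both. Without bulk CMP replicate 2 the count was 8, with *Ms4a3* at 12.2 CPM in bulk CMPs, below 12.9 CPM in CD62L-neg CMPs. For 7 genes the bulk GMP mean lay between the lowest and the highest GMP fraction. The means of *Mpo*, *Elane* and *Prtn3* in bulk GMPs were below those of all 3 fractions, at 17589.9 against 17591.5 CPM or more for *Mpo*, 1896 against 2136 CPM or more for *Elane* and 979 against 1027 CPM or more for *Prtn3*, and in none of these did bulk GMPs differ from the next higher fraction beyond the spread. Without CD62L-high GMP replicate 1 the CD62L-high mean of *Mpo* was 15974 CPM, bulk GMPs then lay above it, and 8 genes lay between. The count was also 8 without bulk GMP replicate 2 or replicate 3.

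Between CD62L-high and CD62L-neg GMPs, 2 of the 10 genes were higher, where 4.49% of all tested genes were, and 4 were lower, where 6.01% were. The 2 that rose were *Lyz2*, by 2.94 (SE 0.21, adjusted p = 2.63e-10), and *Slpi*, by 2.11 (SE 0.28, adjusted p = 6.16e-06). The 4 that fell were *Nkg7* at -1.92 (SE 0.26, adjusted p = 8.33e-06), *Srgn* at -1.58 (SE 0.13, adjusted p = 4.41e-09), *Ms4a3* at -1.24 and *Serpinb1a* at -1.20. *Ctsg* had -0.77 (SE 0.18, adjusted p = 0.00423), past the adjusted p with a fold under 2 and without overlap. The differences of the peroxidase and the other 2 proteases were -0.23 (SE 0.18, adjusted p = 0.458) for *Mpo*, -0.26 (SE 0.21, adjusted p = 0.48) for *Elane* and 0.33 (SE 0.25, adjusted p = 0.431) for *Prtn3* in the same test, and their libraries overlapped. Without CD62L-high GMP replicate 1, which was the highest of its population for these 3 genes, the values were -0.37 (adjusted p = 0.258), -0.41 (adjusted p = 0.285) and 0.13 (adjusted p = 0.843). None of the 6 calls was lost when any 1 library was left out. Groups did not overlap for 7 of the 10 genes, where 32.2% of all genes did not.

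**Figure D2:**
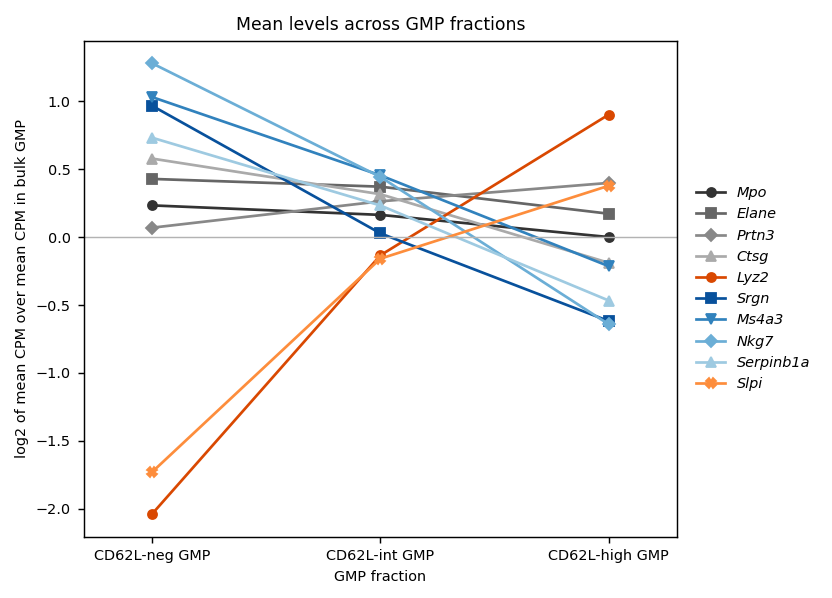
Mean CPM of each gene in the 3 GMP fractions, as the log2 ratio to its mean in bulk GMPs (grey line at 0), means of 3 libraries without error bars, whose per-library values are in the text. Lyz2 and Slpi rose from the CD62L-neg to the CD62L-high fraction, Nkg7, Ms4a3, Srgn and Serpinb1a fell, and Mpo, Elane and Prtn3 stayed within 0.43 of the bulk value.

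By the mean, CD62L-int GMPs stood between these fractions for all 10 genes, and for 9 without CD62L-high GMP replicate 1, where *Prtn3* was highest in the CD62L-int cells, or without CD62L-int GMP replicate 2, where *Elane* was. Against CD62L-neg GMPs, 2 of the 10 were higher, where 1.84% of all tested genes were, and 0 were lower, where 2.48% were. *Lyz2* rose by 1.90 (SE 0.20, adjusted p = 4.21e-07) and *Slpi* by 1.57 (SE 0.28, adjusted p = 0.00055). *Srgn* at -0.94 and *Ms4a3* at -0.58 were past the adjusted p with a fold under 2, and *Nkg7* at -0.84 had an adjusted p of 0.0509 (quasi-likelihood test). Between CD62L-int and CD62L-high GMPs, 1 gene was higher in the CD62L-int cells, where 0.885% of all tested genes were, and 1 was lower, where 0.331% were. *Nkg7* was higher, by 1.09 (SE 0.26, adjusted p = 0.0273), and *Lyz2* was lower, at -1.04 (SE 0.19, adjusted p = 0.0042). Both calls are narrow. *Nkg7* was not called without any 1 of the 3 CD62L-int replicates or without CD62L-high replicate 2 or 3, and *Lyz2* not without CD62L-int replicate 1 or CD62L-high replicate 1, with a log2 fold change of -0.95 in the last case. *Mpo*, *Elane* and *Prtn3* overlapped between the 2 fractions.

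CD62L-neg GMPs were also set against bulk GMPs. There 2 of the 10 genes were higher, where 1.89% of all tested genes were, and 2 were lower, where 2.18% were. *Nkg7* rose by 1.28 (SE 0.26, adjusted p = 0.00217) and *Ms4a3* by 1.03 (SE 0.16, adjusted p = 0.000152). *Lyz2* fell, at -2.04 (SE 0.20, adjusted p = 2.7e-07), as did *Slpi*, at -1.73 (SE 0.28, adjusted p = 0.000211). *Srgn* at 0.97 and *Serpinb1a* at 0.73 were past the adjusted p with a fold under 2. The fold of *Ms4a3* was 2.04, and its call was lost without bulk GMP replicate 3 or without CD62L-neg GMP replicate 3, at log2 fold changes of 0.98 and 0.99. These comparisons among GMPs share libraries with one another.

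The step from CMP to GMP was then measured between fractions of the same name. The gates were set apart in CMPs and GMPs, so a shared name does not mean an equal CD62L level. Between CD62L-neg GMPs and CD62L-neg CMPs, 9 of the 10 genes were higher, where 6.49% of all tested genes were, and 0 were lower, where 6.11% were. *Elane* rose by 5.13 (SE 0.25, adjusted p = 5.74e-13), *Ctsg* by 4.70, *Ms4a3* by 4.62, *Prtn3* by 4.36, *Mpo* by 4.26 and *Slpi* by 4.05, the last with 5.53 (adjusted p = 7.12e-09) without CD62L-neg CMP replicate 1. *Serpinb1a* rose by 2.78, *Nkg7* by 1.68 and *Srgn* by 1.46, while *Lyz2* was not called. Between CD62L-high GMPs and CD62L-high CMPs, 8 were higher, where 2.53% of all tested genes were, and 0 were lower, where 5.11% were. The rise was again largest for *Elane*, at 3.30 (SE 0.23, adjusted p = 8.75e-10), followed by *Ms4a3* at 2.76 and *Lyz2* at 2.08. *Mpo* rose by 1.35 and *Ctsg* by 1.14. *Srgn* was past the adjusted p with a fold of 1.56, and *Serpinb1a* had an adjusted p of 0.750 (quasi-likelihood test).

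Whether the CD62L difference was the same in GMPs as in CMPs was tested as an interaction, at an adjusted p under 0.05 without a fold limit. It passed for 9 of the 10 genes, where 7.35% of all tested genes passed. The study divided the whole of the CMPs by CD62L level, but took narrow ends of the CD62L range as GMP fractions. The interaction thus compares CD62L contrasts of unlike width, and the part of that width in the result was not tested. For 8 genes the difference between CD62L-high and CD62L-neg cells was more negative in GMPs. It was most so for *Ctsg*, at -3.57 (SE 0.27, adjusted p = 9.37e-09), and for *Mpo*, at -2.90 (SE 0.27, adjusted p = 1.62e-07). For *Lyz2* it was more positive in GMPs, by 1.99 (SE 0.28, adjusted p = 3.6e-05). *Serpinb1a* was higher in CD62L-high than in CD62L-neg CMPs and lower in CD62L-high than in CD62L-neg GMPs, both past the call. *Slpi* had -2.44 (SE 0.50, adjusted p = 0.00273), and -3.95 (adjusted p = 4.88e-05) without CD62L-neg CMP replicate 1. *Nkg7* was lower with high CD62L in both, and its interaction had a log2 value of -0.16 (SE 0.37, adjusted p = 0.885).

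**Figure D3:**
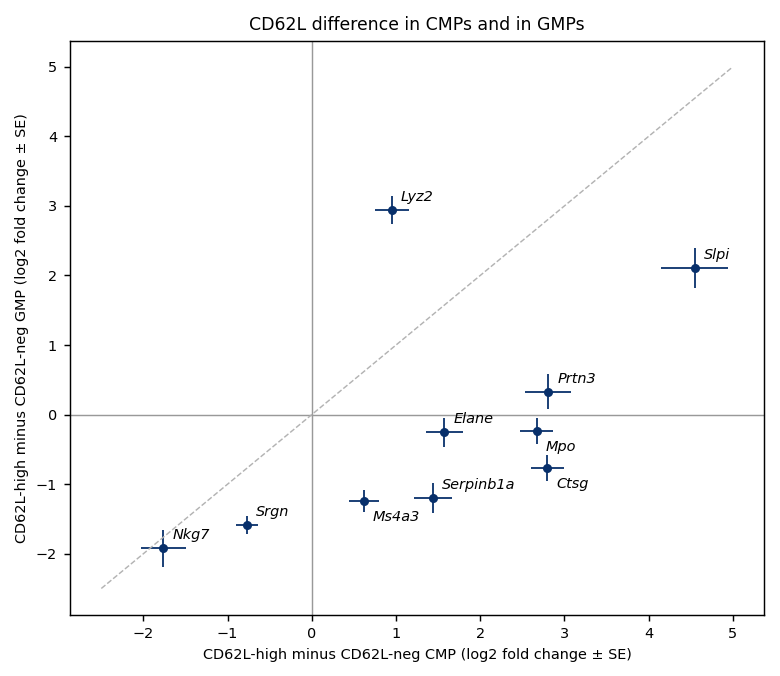
Log2 fold change of CD62L-high over CD62L-neg cells in CMPs (horizontal) and in GMPs (vertical), with standard errors of the quasi-likelihood fit as bars, grey lines at 0 and a dashed line where both would be equal. Lyz2 lies above the dashed line, Nkg7 near it and the other genes below it, with Mpo, Elane and Prtn3 near 0 in GMPs.

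Counts of 1 gene relative to another within a library do not depend on the scaling between libraries. *Elane* had 6.99 ± 1.03 counts per 100 counts of *Mpo* in CD62L-neg CMPs (SD, n = 3) and 3.14 ± 0.188 in CD62L-high CMPs. The bulk GMPs had 10.8 ± 0.163, and the ratio was 12.3 ± 0.469, 12.4 ± 0.545 and 12.1 ± 0.205 in the CD62L-neg, CD62L-int and CD62L-high fractions of GMPs. *Elane* relative to *Mpo* was thus lowest in CD62L-high and bulk CMPs, and higher in every GMP library than in any CMP library. The log2 difference was -1.15 between CD62L-high and CD62L-neg CMPs and 1.95 between CD62L-high GMPs and CD62L-high CMPs, each without overlap and with an exact permutation p of 0.1 (both sides counted), the smallest that 3 against 3 libraries allow. It was -0.02 between CD62L-high and CD62L-neg GMPs (exact permutation p = 0.7). *Prtn3* was higher relative to *Mpo* in CD62L-high than in CD62L-neg GMPs without overlap, with 7.29 ± 0.48 against 4.97 ± 0.252 counts per 100, and *Ctsg* was lower, with 3.3 ± 0.559 against 4.69 ± 0.151, each at an exact permutation p of 0.1. *Lyz2* had 3.26 ± 0.241 counts per 100 in CD62L-neg CMPs and 0.178 ± 0.0375 in CD62L-neg GMPs. Over the 20 comparisons of ratios made, the lowest p adjusted by the Benjamini-Hochberg method was 0.167 (exact permutation tests).

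**Figure D4:**
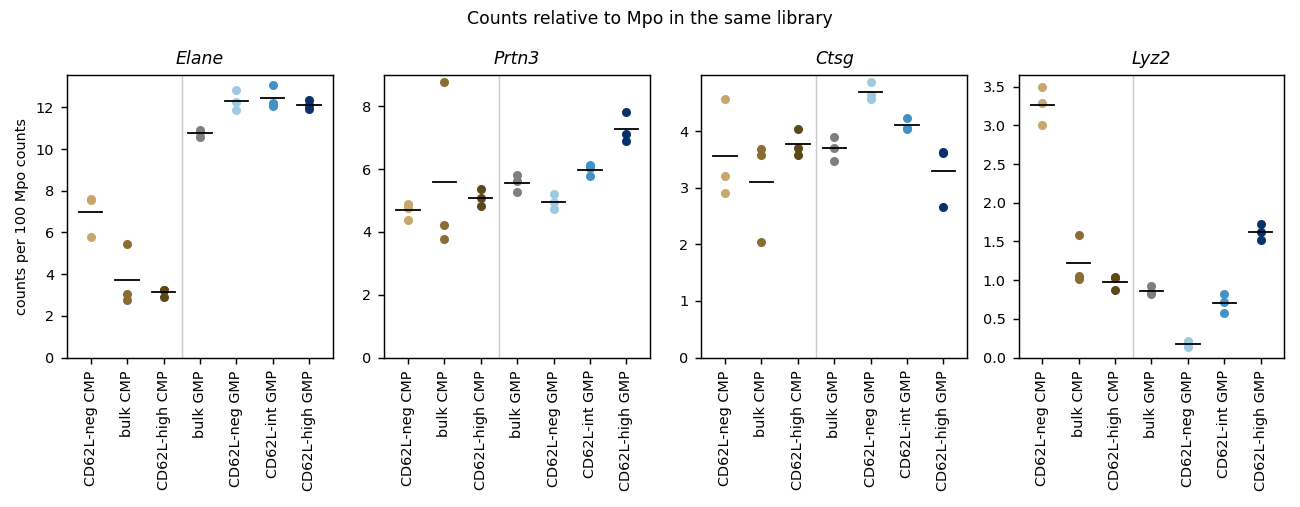
Counts of Elane, Prtn3, Ctsg and Lyz2 per 100 Mpo counts of the same library (linear axes from 0), with 1 point per library and a black bar at the population mean. Elane lies between 10.6 and 13.1 in all GMP libraries and at most 7.62 in all CMP libraries, Lyz2 is highest in CD62L-neg CMPs, and bulk CMP replicate 2 gives the high Elane and Prtn3 points and the low Ctsg point of the bulk CMPs.

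Likeness of pattern was measured as Pearson's r of log2(CPM + 4) over the 21 libraries. These come from only 7 populations, so r is given as a description. Among the 10 genes, *Mpo* and *Prtn3* were most alike (r = 0.986), followed by *Mpo* and *Ctsg* (r = 0.985) and *Elane* and *Ms4a3* (r = 0.975). *Lyz2* was nearest to *Slpi* (r = 0.880) and *Srgn* to *Nkg7* (r = 0.920), while *Lyz2* and *Srgn* had r = -0.187. Among 8746 expressed protein-coding genes, the nearest to *Mpo* were *Atp8b4* (r = 0.988), *Clec12a* (r = 0.986) and *Prtn3*. The nearest to *Elane* were *Gstm1* (r = 0.996), *Gsr* (r = 0.991) and *Tmem165* (r = 0.986), the first a glutathione transferase and the second glutathione reductase. The nearest to *Prtn3* were *B4galnt1* (r = 0.989), *Mpo* and *Plod3* (r = 0.984), and to *Ctsg* *Atp8b4* (r = 0.988), *Igsf6* (r = 0.985) and *Mpo*. *Lyz2* was nearest to *Ctsc* (r = 0.969), *Pik3r6* (r = 0.960) and *Xdh* (r = 0.957), of which *Ctsc* encodes cathepsin C, the enzyme that activates the granule proteases. *Slpi* was nearest to *Cybb* (r = 0.985), a subunit of the NADPH oxidase, *G6pdx* (r = 0.970) and *Ly6c2* (r = 0.970), a monocyte marker. *Srgn* and *Nkg7* shared *Gnai3* as nearest gene (r = 0.953 and 0.931) and *Hdc*, the histamine-forming enzyme of basophils and mast cells, among the first 3 (r = 0.927 and 0.913). *Cd63* was the other for *Srgn* (r = 0.927). Without bulk CMP replicate 2, *Hdc* was nearer than *Gnai3* to both *Srgn* (r = 0.9695 against 0.9526) and *Nkg7* (r = 0.9532 against 0.9309). *Ms4a3* was nearest to *Mgam* (r = 0.987), *Ncam1* (r = 0.985) and *Trem3* (r = 0.984), and *Serpinb1a* to *Anxa1* (r = 0.951), *Mlec* (r = 0.951) and *Cst7* (r = 0.950).

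Neighbours on the chromosome were compared in the same way. *Prtn3* and *Elane*, 3073 bases apart, had r = 0.948, and *Med16*, 6493 bases beyond *Elane*, had r = 0.229 with it at means of 41.8 to 63.1 CPM. *Tspoap1*, 7653 bases before *Mpo*, had r = 0.901 with *Mpo* and means of 20.3 to 149.6 CPM, while *Epx*, the eosinophil peroxidase 59587 bases beyond it, had r = 0.465 and reached 363 CPM in CD62L-neg GMPs. *Mcpt8*, a basophil protease and the nearest tested gene on 1 side of *Ctsg*, had r = 0.623 and was highest in CD62L-neg GMPs, at a mean of 119 CPM. *Ms4a2*, a subunit of the IgE receptor 5777 bases from *Ms4a3*, had r = 0.102 with it and a mean of 198 CPM in CD62L-neg GMPs.

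Other genes of the granule were taken from lists written for this comparison, described by counts and medians. Of all tested genes, 5.62% were called higher and 4.84% lower in CD62L-high than in CD62L-neg CMPs. The shares were 4.19% and 7.3% in bulk GMPs against bulk CMPs, and 4.49% and 6.01% in CD62L-high against CD62L-neg GMPs. Of 12 further azurophil granule genes, 11 were tested. Of these, 6 were higher and 1 lower in CD62L-high than in CD62L-neg CMPs (median log2 fold change 1.26), 5 were higher and 1 lower in bulk GMPs than in bulk CMPs (0.92), and 2 were higher and 3 lower in CD62L-high than in CD62L-neg GMPs (-0.12). Without bulk CMP replicate 2, 6 were higher and 0 lower in bulk GMPs. *Prss57*, the gene of neutrophil serine protease 4, fell in CD62L-high against CD62L-neg GMPs, at -1.89 (SE 0.21, adjusted p = 4.75e-07), having been 99.7 ± 7.12 CPM in CD62L-neg and 26.8 ± 9.81 CPM in CD62L-high GMPs (SD, n = 3). *Arsb*, a lysosomal sulfatase, fell by the same comparison, at -1.30 (SE 0.23, adjusted p = 0.000213), and *Cd63*, a tetraspanin of granule membranes that basophils also carry, had -5.28 (SE 0.30, adjusted p = 7.97e-12). *Clec5a*, a myeloid lectin, rose, at 1.67 (SE 0.26, adjusted p = 5.19e-05), as did *Hexa*, a lysosomal hexosaminidase, at 1.12. In CMPs *Clec5a* rose most with high CD62L, at 3.48 (SE 0.38, adjusted p = 2.7e-07), and *Cd63* fell, at -2.21 (SE 0.28, adjusted p = 1.77e-06). Of 5 genes that fold or activate granule proteins, *Ctsc* rose in CD62L-high against CD62L-neg GMPs, at 1.83 (SE 0.16, adjusted p = 6.46e-09), and *Calr*, the chaperone calreticulin, fell, at -1.09 (SE 0.30, adjusted p = 0.0136), while the other 3 were not called. Without CD62L-high GMP replicate 1, *Calr* was not called, at -0.75 (adjusted p = 0.0733) in the same quasi-likelihood test. In CMPs 0 of the 5 were called at the same contrast, and 3 were higher in bulk GMPs than in bulk CMPs, or 2 without bulk CMP replicate 2. The summed level of these 5 genes was 2331 CPM in CD62L-high GMP replicate 1 against 4232 and 4313 CPM in the other CD62L-high GMP libraries, and 1253 CPM in bulk CMP replicate 2 against 3058 and 3120 CPM in the other bulk CMP libraries. *Calr* was 766 CPM in CD62L-high GMP replicate 1 and 2050.4 and 2046 CPM in replicates 2 and 3, against 3256 CPM or more in CD62L-neg GMPs.

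Of 13 genes of granule sorting and release, 1 was higher and 1 lower in CD62L-high than in CD62L-neg CMPs. This is near the 5.62% and 4.84% of all tested genes that were. In bulk GMPs 5 were higher than in bulk CMPs, where 4.19% of all tested genes were, or 3 without bulk CMP replicate 2. *Rab27a*, a GTPase of granule docking, rose in CD62L-high CMPs, at 1.23 (SE 0.18, adjusted p = 1.65e-05), and *Stx11*, a syntaxin, fell, at -1.91 (SE 0.35, adjusted p = 0.000295). In GMPs *Stx11* was higher in the CD62L-high cells, at 1.17 (SE 0.34, adjusted p = 0.0175), and *Unc13d*, a priming factor for release, was lower, at -1.14 (SE 0.17, adjusted p = 1.93e-05). The call of *Stx11* in GMPs was lost without CD62L-high GMP replicate 1, at 0.82 (adjusted p = 0.142), and without CD62L-neg GMP replicate 1, at 0.95 (adjusted p = 0.102), or replicate 3, at 0.96 (adjusted p = 0.0994), by the same test. Of 11 further protease inhibitors, 7 were tested. In CD62L-high against CD62L-neg CMPs 2 of these were higher and 1 lower, where 5.62% and 4.84% of all tested genes were. In CD62L-high against CD62L-neg GMPs 1 was higher and 2 were lower, where 4.49% and 6.01% were. In each comparison 4 of the 7 were not called. *Cst7*, cystatin F, moved like *Serpinb1a*, being higher in CD62L-high CMPs, at 1.10 (SE 0.18, adjusted p = 9.99e-05), and lower in CD62L-high GMPs, at -1.02 (SE 0.18, adjusted p = 0.000173), though not called there without CD62L-high GMP replicate 2, at -0.87 (adjusted p = 0.00174). *Serpina3g* fell with high CD62L in CMPs, at -2.13 (SE 0.34, adjusted p = 5.03e-05), and in GMPs, at -2.56 (SE 0.36, adjusted p = 1.38e-05). *Cst3*, cystatin C, was higher with high CD62L in both, at 2.18 (SE 0.15, adjusted p = 1.68e-10) and 1.001 (SE 0.14, adjusted p = 1.71e-05). The value in GMPs lies at the 2-fold limit, and in 17 of the 21 fits that left out 1 library it was 0.89 to 0.99 and not called.

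Of 9 transcription factors with known sites at primary granule genes, 5 were higher in CD62L-high than in CD62L-neg CMPs and 0 were lower. Of all tested genes 5.62% and 4.84% were. In CD62L-high against CD62L-neg GMPs 1 was higher and 3 were lower, where 4.49% and 6.01% of all tested genes were. *Cebpa*, *Cebpb*, *Cebpd*, *Spi1* and *Gfi1* rose in the CD62L-high fraction of CMPs, by 1.33, 1.64, 3.17, 1.79 and 1.71 on the log2 scale. The study picked out *Cebpa*, *Cebpb*, *Cebpe*, *Spi1* and *Gfi1* for this contrast, and *Gfi1* and *Cebpe* again for the GMP fractions, so these too are not independent evidence of a direction. In GMPs *Cebpe*, which is needed for the later granules, fell with high CD62L, at -4.07 (SE 0.49, adjusted p = 1.18e-06), and so did *Gfi1*, at -2.52 (SE 0.23, adjusted p = 2.2e-08), and *Myb*, at -1.43 (SE 0.15, adjusted p = 1.25e-07), while *Cebpb* rose, at 1.27 (SE 0.21, adjusted p = 0.000119). *Cebpe* was 54.6 ± 5.52, 16.6 ± 3.86 and 3.19 ± 3.25 CPM in the same order of GMP fractions, and *Gfi1* was 126 ± 8.88, 72.4 ± 5.68 and 21.8 ± 4.79 CPM. *Cebpa* was 169 ± 21.6, 149 ± 2.75 and 171 ± 17.5 CPM in the same fractions and was not called between them. Of 12 genes of the secondary and tertiary granules, 11 were tested, and their summed level stayed between 10.004 and 334 CPM in all libraries. Of these, 3 were higher and 0 lower with high CD62L in CMPs, where 5.62% and 4.84% of all tested genes were. In bulk GMPs against bulk CMPs 5 were higher and 0 lower, where 4.19% and 7.3% were. In CD62L-high against CD62L-neg GMPs 3 were higher and 1 lower, where 4.49% and 6.01% were, and the 1 lower is near that share. The number higher in CMPs was 1 without CD62L-neg CMP replicate 2, and the number higher in bulk GMPs was 4 to 6 over the fits that left out 1 library. Between the GMP fractions 3 were lower without bulk CMP replicate 2 and 0 without CD62L-high GMP replicate 1.

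Markers of other cell types moved with the same populations. In CD62L-high against CD62L-neg GMPs, 4.49% of all tested genes were called higher and 6.01% lower. Eosinophil markers (8 genes, 7 tested) summed to 1228 to 1883 CPM in CD62L-neg GMPs, 121 to 128 CPM in bulk GMPs, 4.83 to 7.02 CPM in CD62L-int GMPs and 2.15 to 5.69 CPM in CD62L-high GMPs, and all 7 were lower in CD62L-high than in CD62L-neg GMPs. Basophil and mast cell markers (10 genes) summed to 1143 to 1818 CPM in CD62L-neg GMPs and 41.9 to 59.6 CPM in CD62L-high GMPs, where all 10 were lower, or 8 to 10 over the fits that left out 1 library, and *Cpa3*, *Fcer1a*, *Tpsb2* and *Cma1* were at 0. In CMPs the same list summed to 766 to 788 CPM in CD62L-neg and 58.3 to 87.4 CPM in CD62L-high cells. These levels go the same way as those of *Srgn*, *Nkg7*, *Ms4a3*, *Serpinb1a*, *Prss57* and *Cd63* in GMPs, and as *Srgn* and *Nkg7* in CMPs, and their part in those differences was not tested. Monocyte markers (13 genes, 12 tested) summed to 45.2 to 95.4 CPM in CD62L-neg CMPs, 2078 to 2552 CPM in CD62L-high CMPs, 175 to 193 CPM in CD62L-neg GMPs, 1944 to 2167 CPM in CD62L-int GMPs and 3494 to 3789.8 CPM in CD62L-high GMPs. They were 11 higher and 0 lower in CD62L-high than in CD62L-neg GMPs, the direction of *Lyz2*, *Slpi* and *Ctsc*, and their part in those differences was not tested. Megakaryocyte markers (9 genes) summed to 751 to 896 CPM and erythroid markers (9 genes) to 434 to 463 CPM in CD62L-neg CMPs, against 32.7 to 37.1 CPM and 22.8 to 43 CPM in CD62L-high CMPs. Monocyte markers moved in CMPs in the same direction as *Mpo*, *Elane*, *Prtn3* and *Ctsg*, and the megakaryocyte and erythroid markers in the opposite one, that of *Srgn* and *Nkg7*. In GMPs megakaryocyte markers summed to 118 to 158 CPM in CD62L-neg and 13.3 to 18.9 CPM in CD62L-high cells. Erythroid markers summed to 54.3 to 80.6 CPM and 1.11 to 4.57 CPM there. On each list 6 of 9 genes were lower in CD62L-high than in CD62L-neg GMPs, the direction of *Srgn*, *Nkg7*, *Ms4a3* and *Serpinb1a*. The part of these other cell types in those differences was not tested.

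**Figure D5:**
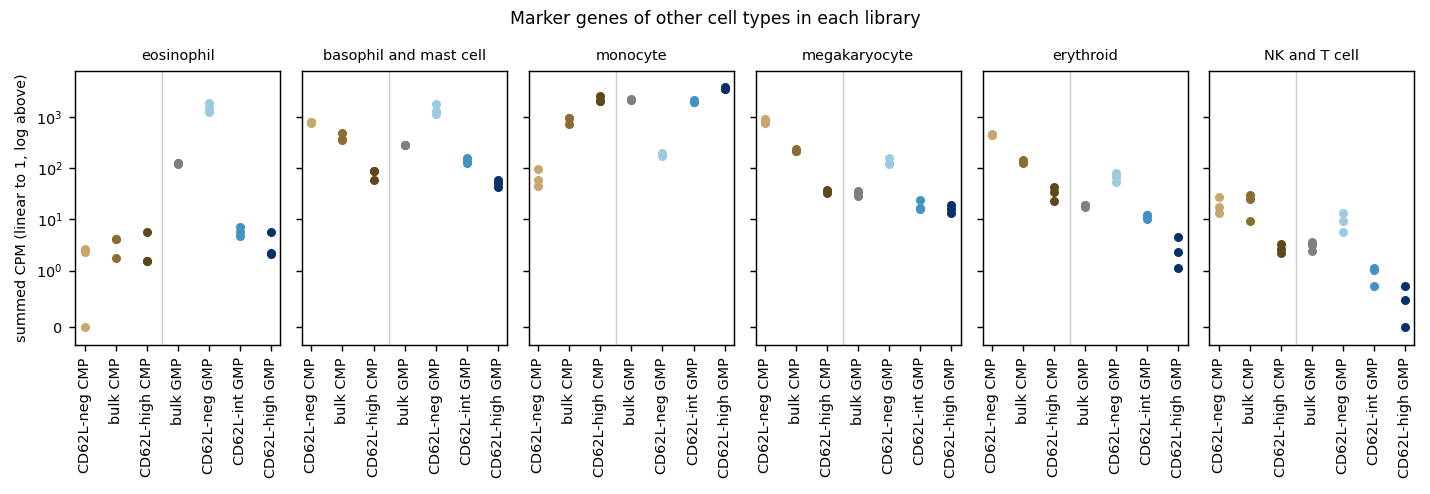
Summed CPM of marker genes of 6 other cell types, 1 point per library, on an axis that is linear up to 1 and logarithmic above. Eosinophil and basophil or mast cell markers are highest in CD62L-neg GMPs, monocyte markers are lowest in the CD62L-neg fractions of CMPs and GMPs, and megakaryocyte and erythroid markers are highest in CD62L-neg CMPs.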

How the data were processed

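RNA of 21 libraries from sorted mouse progenitors was deposited as counts of reads per Ensembl gene, made by the authors with Trim Galore, HISAT2 (mm10) and HTSeq. Versions, the annotation release and the strand setting are not given in the sources used here. The labels name a stranded SMARTer kit and the study SMART-Seq, so the strand could not be settled. All count columns were used.

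Counts were filtered with filterByExpr, scaled by TMM and fitted in edgeR 4.0.16 (R 4.3.3) with the quasi-likelihood test over all 21 libraries and 7 populations. P-values were adjusted by the Benjamini-Hochberg method. Calls required an adjusted p below 0.05 and a change of more than 2-fold, except for the interaction and the test over all populations, which had no fold limit. The fit was tested on simulated data. Alternatives were DESeq2 1.42.0, other scaling, no filter, fewer populations, a replicate block and leaving out each library.

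The 10 genes and the other lists were chosen with earlier results of these data known. All 10 were named. Of other lists, called genes with the largest fold were named, at most 4 in each direction, and for likeness the 3 genes with the highest r among genes with a population mean of at least 10 CPM. Libraries held 6145834 to 15263573 counts. Coordinates are those of mm10, matched for 47224 of 47643 gene identifiers.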

Additional observations from a re-analysis of the deposited data

Results flagged for a closer look

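For 9 of the 10 genes the difference between CD62L-high and CD62L-neg cells was not the same in GMPs as in CMPs, by the interaction term of the edgeR fit at an adjusted p under 0.05, where 7.35% of all tested genes passed. The log2 interaction was -2.90 for *Mpo*, -1.83 for *Elane*, -2.48 for *Prtn3* and -3.57 for *Ctsg*, the genes of the granule enzymes. It was -0.81 for *Srgn*, -1.86 for *Ms4a3*, -2.64 for *Serpinb1a* and -2.44 for *Slpi*, and 1.99 for *Lyz2*. The CD62L gates were of unlike width in CMPs and GMPs, and the part of that in these values was not tested. Single libraries that stand apart within a group of 3 were not tested for.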

How the results depend on the processing

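Of the counts of called genes, 511 values under an alternative lay within 1.5 times the reported one and 9 did not, and no call changed direction. All 9 came from leaving out 1 library. The number higher in CD62L-neg than in bulk GMPs ranged from 1 to 2. In CD62L-int against CD62L-high GMPs the number higher ranged from 0 to 1 and the number lower from 0 to 1. The number higher in CD62L-high CMPs was 6 to 7. In bulk GMPs against bulk CMPs it was 8 to 9, where *Nkg7* lost its call under DESeq2 (log2 fold change 0.95), under DESeq2 size factors in edgeR (0.97) and in a fit of the bulk populations alone (0.99, adjusted p = 0.155). Of the fold changes of single genes, 2454 kept their side of the threshold, 15 lost the call and 1 gained it. Without bulk CMP replicate 2, CD62L-high GMP replicate 1 or CD62L-neg CMP replicate 1, 912 fold changes of genes of the other lists kept their side, 20 lost the call and 13 gained it. The positions of the bulk and CD62L-int means without each library were added after seeing the data. Without bulk CMP replicate 2, an alternative chosen after seeing the data, the correlation of *Srgn* with *Hdc* was 0.97 in place of 0.927. Among the 3 nearest genes named, the first then changed to *Prtn3* for *Mpo*, and to *Mpo* for *Prtn3* and *Ctsg*. It changed to *Hdc* for *Srgn* and *Nkg7*, and to *Cst7* for *Serpinb1a*.

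With the replicate block, the counts higher and lower were as reported: 6 and 1 for CD62L-high against CD62L-neg CMPs, 9 and 0 for bulk GMPs against bulk CMPs, 2 and 2 in CD62L-neg against bulk GMPs, 1 and 1 in CD62L-int against CD62L-high GMPs, and 2 and 4 in CD62L-high against CD62L-neg GMPs. Libraries with the same number, in the populations compared, deviated with correlations of -0.109 to 0.0831. This shows no sign of pairing by number, and cannot show that such libraries were unpaired. The counts of *Slpi* in CD62L-neg CMPs (14, 3 and 1) limit its fold changes.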
